A study of Mus musculus with 11 samples.

Results

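Hcn2, Hcn3 and Hcn4 encode subunits of the hyperpolarization-activated, cyclic nucleotide-gated (HCN) pacemaker channels. They were chosen by gene family and not by a rule on measured values, but with earlier results of these data known. These were 3 of the 23644 genes listed in both RNA-seq count tables of mouse hippocampus, and all 3 passed the filter on low counts in every comparison. Mice were C57BL/6N at postnatal day 32 and came from a line founded by Cas9 editing of oocytes, in which the non-coding 1b interval of Scn1a is deleted in every cell. Scn1a encodes the voltage-gated sodium channel Nav1.1. In the heterozygous round, 4 1b+/- mice (3 male and, as replicate 4, 1 female) were compared with 3 male wildtype (WT) mice, using paired-end reads. In the homozygous round, 2 1b-/- mice (replicate 1 male, replicate 2 female) were compared with 2 female WT mice, using short single-end reads. The 1b interval was intact in WT mice of both rounds, and no mouse was described as treated. Each round was sequenced and tabulated separately, so the round cannot be told apart from the choice of mutant genotype, and each mutant was tested against the WT mice of its own round.

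HCN channels open when the membrane hyperpolarizes and then pass a mixed inward current of sodium and potassium, called Ih. Subunits assemble as tetramers, and cyclic AMP binding to the intracellular C-terminal domain eases opening, strongly in HCN2 and HCN4 and little in HCN3. In neurons Ih sets the resting potential, shapes how dendrites integrate input and paces rhythmic firing. HCN2 is widespread in brain and abundant in thalamus, where its loss in mice causes absence seizures. HCN4 is the main pacemaker subunit of the sinoatrial node and in brain is concentrated in thalamus and medial habenula. HCN3 is the least studied of the family.

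Libraries held 20667122 to 36145161 counts. Scn1a checked the labels. It stood at 26.3 and 16.7 CPM (counts scaled to a common library total) in 1b-/- against 133.8 and 172.7 in WT, a log2 fold change of -2.83 (adjusted p = 0.0211, edgeR's quasi-likelihood test), and lost its call, at a like size, without either WT library (-3.00, adjusted p = 0.101, and -2.64, adjusted p = 0.0601). In 1b+/- it stood at 91.2, 83.4, 96.7 and 119.4 CPM against 171.0, 112.9 and 123.2 in WT (log2 fold change -0.47, adjusted p = 0.303), with -0.27 without WT replicate 1 and -0.59 without 1b+/- replicate 4. Dissection markers differed between libraries. In the homozygous round, 11 of 14 striatum markers fell in 1b-/- (1.52% of all genes did), and their sum was 168 to 253 CPM in 1b-/- against 2781 to 6735 CPM in WT, where WT of the heterozygous round had 152 to 300 CPM. Basal forebrain cholinergic markers followed, with 4 of 8 called lower and sums of 5.20 to 21.9 CPM against 74.2 to 163 CPM. Hippocampal pyramidal cell markers ran the other way, with CA1 sums of 831 to 1179 CPM in 1b-/- against 359 to 417 CPM in WT. In the heterozygous round the striatum sum was 114 to 146 CPM in 1b+/-, below every WT library, with 8 of 12 markers lower at an unadjusted p under 0.05 (5.95% of all genes) and 0 at an adjusted one. Hypothalamus markers, low throughout, summed to 2.28 to 4.32 CPM in 1b+/- against 15.3 to 25.9 CPM in WT. Of the 4 tested, 3 were lower at an unadjusted p under 0.05 and 0 at an adjusted one. Most of that difference was Trh (1.18 against 16.3 CPM). Nkx2-1 and Sim1 were also lower, while Agrp (0.661 against 0.617 CPM) and Pomc (0.806 against 0.831 CPM) were nearly level. In the homozygous round these markers summed to 3.78 to 6.46 CPM in 1b-/- against 15.9 to 17.3 CPM in WT. Cholinergic markers of the heterozygous round summed to 4.73 to 14.7 CPM in 1b+/- and 14.5 to 20.8 CPM in WT. Most of that difference was Ecel1 (2.92 against 11.7 CPM). Of the 4 cholinergic markers tested there, 2 were lower in 1b+/- and 2, Chat and Slc18a3, were higher. Thalamus markers, 9 genes, summed to 763 CPM in WT replicate 1 and to 389 and 554 CPM in 1b+/- replicates 3 and 4, against 191 to 233 CPM in the other 4 libraries of that round and 152 to 212 CPM in the homozygous round. Several of these sums are named again beside results that they move with, though not every list at every result.

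Per kilobase of annotated exon, the order of the genes was Hcn2, then Hcn3, then Hcn4 in 11 of 11 libraries. In WT of the heterozygous round, Hcn2 stood at 35.5 ± 6.40 RPKM (CPM per kilobase of exon; SD, n = 3). Hcn3 followed at 3.25 ± 0.288 RPKM and Hcn4 at 1.79 ± 0.606 RPKM (SD, n = 3). The ranges of neighbours in this order did not overlap, since the lowest Hcn3 value was 3.01 RPKM and the highest Hcn4 value 2.49 RPKM. WT of the homozygous round gave 56.4 ± 21.3, 3.90 ± 0.340 and 1.26 ± 0.0880 RPKM for Hcn2, Hcn3 and Hcn4 (SD, n = 2). Exon models were those of GENCODE M1 on mm9, with 3195 exon bases for Hcn2, 4154 for Hcn3 and 3798 for Hcn4, and levels between genes rest on these lengths.

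By the fit across all genes, 0 of the 3 genes passed an adjusted p of 0.05 in 1b+/- and 0 of 3 in 1b-/-. Over all genes tested, 0% of 14630 and 3.58% of 14838 passed in these comparisons. In the heterozygous round 1649 genes (11.3%) had an unadjusted p under 0.05 and none of them was an HCN gene, while DESeq2 called 245 genes and edgeR's likelihood ratio test 191. In the homozygous round 26.4% of genes had an unadjusted p under 0.05, and Hcn3 was 1 of them. Groups of the heterozygous round overlapped for each of the 3 genes, where 10.9% of all genes did not overlap. Groups of the homozygous round did not overlap for Hcn3, higher in 1b-/-, and Hcn4, lower in 1b-/-, where 59.7% of all genes did not overlap (29.5% higher and 30.2% lower).

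**Figure D1:**
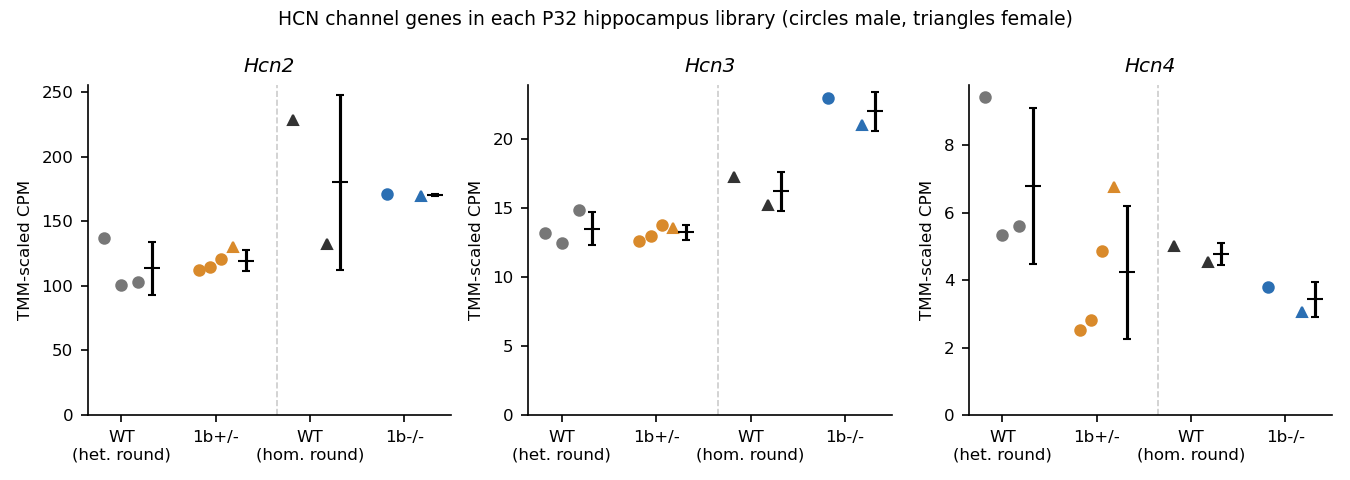
CPM (scaled by TMM within each round, linear axes from 0) of Hcn2, Hcn3 and Hcn4 in each library; points are libraries and horizontal bars group means. Hcn3 in the 2 1b-/- libraries (21.0 and 23.0 CPM) lies above both WT libraries of that round (15.2 and 17.2 CPM), and Hcn4 runs from 2.52 to 6.76 CPM in 1b+/- against 5.34 to 9.45 CPM in WT.

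Hcn2, the most abundant of the 3, gave no difference beyond the spread between libraries in either genotype with all libraries in the fit, and its sign depended on single WT libraries. The gene (ENSMUSG00000020331.3) lies at chr10:79179379-79198853 (mm9, plus strand) in 8 exon blocks, 15 bases from the end of Polrmt on the opposite strand, which encodes the mitochondrial RNA polymerase and had log2 fold changes of -0.05 (adjusted p = 0.722) in 1b+/- and 0.20 (adjusted p = 0.524) in 1b-/-. The 1b+/- libraries had 112.1, 114.7, 120.8 and 130.4 CPM of Hcn2, from 2847 to 3741 counts. The WT libraries had 137.1, 100.5 and 102.9 CPM, from 2334 to 3873 counts. WT replicate 1 was thus the highest of the 7 and the other two WT libraries the lowest, and the groups overlapped. Means were 119.5 ± 8.14 (SD, n = 4) and 113.5 ± 20.4 CPM (SD, n = 3), with p = 0.6 by a two-sided exact permutation test. The log2 fold change was 0.07 (SE 0.10, adjusted p = 0.828, edgeR's quasi-likelihood test). It was 0.23 without WT replicate 1 (SE 0.065, unadjusted p = 0.00608, adjusted p = 0.115) and -0.00088 without WT replicate 2. Oligodendrocyte marker sums, scaled over all 11 libraries, were also lowest in WT replicates 2 and 3, at 6991 and 6751 CPM. WT replicate 1 had 11108 CPM and the 1b+/- libraries 9664 to 11363 CPM. The part of these markers in the Hcn2 values was not tested.

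In the homozygous round, Hcn2 stood at 171.1 and 169.5 CPM in 1b-/- and at 228.2 and 132.1 CPM in WT. The mutant libraries were close together and lay between the WT libraries. Means were 170.3 ± 1.11 and 180.1 ± 68.0 CPM (SD, n = 2 each; exact permutation p = 1), and the log2 fold change was -0.08 (SE 0.27, adjusted p = 0.871, edgeR's quasi-likelihood test). WT replicate 1 decided its sign, since Hcn2 was 0.37 higher in 1b-/- without it (adjusted p = 0.169) and -0.42 without WT replicate 2. WT replicate 1 also had the higher striatum sum (6735 against 2781 CPM) and the higher sum of oligodendrocyte markers (24687 against 18417 CPM). Whether the mixed tissue set the spread of Hcn2 in WT was not tested.

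Hcn3 was higher in 1b-/- than in WT of its round by 1.36 times and nearly level in 1b+/-. The gene (ENSMUSG00000028051.4) lies at chr3:88949996-88964118 (mm9, minus strand) in 8 exon blocks. Its last 711 exon bases overlap Pklr, the pyruvate kinase of liver and red blood cells, on the opposite strand. Libraries were stranded, but the setting used in counting was not given in the sources used here, so reads of the overlap cannot be assigned. Pklr itself had 2 to 20 counts per library against 320 to 809 for Hcn3.

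The 1b+/- libraries had 12.6, 12.99, 13.8 and 13.6 CPM of Hcn3 and the WT libraries 13.2, 12.5 and 14.8 CPM. WT values lay on both sides of the mutant ones. Means were 13.2 ± 0.527 (SD, n = 4) and 13.5 ± 1.20 CPM (SD, n = 3; exact permutation p = 0.771), with a log2 fold change of -0.03 (SE 0.08, adjusted p = 0.926, edgeR's quasi-likelihood test). In 1b-/- the 2 libraries had 23.0 and 21.0 CPM, from 809 and 670 counts, and in WT 17.2 and 15.2 CPM, from 381 and 325 counts. Both mutant libraries were above both WT libraries. Means were 22.0 ± 1.40 and 16.2 ± 1.41 CPM (SD, n = 2 each), and p = 0.333 is the smallest that an exact permutation test can give with 2 against 2. The log2 fold change was 0.44 (SE 0.16, unadjusted p = 0.0378, adjusted p = 0.164, edgeR's quasi-likelihood test), so Hcn3 did not pass. It did pass where all 11 libraries shared 1 estimate of the spread (0.43, adjusted p = 0.0135), a fit that called 5541 of 14905 genes in 1b-/-. In the same libraries the striatum markers were low and the CA1 markers high in 1b-/-, and the part of the tissue mix in the Hcn3 difference was not tested.

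Whether the change in 1b-/- differed from that in 1b+/- was tested for each gene in 1 fit of all 11 libraries. The test passed for 1 of the 3 genes, Hcn3, where 27.3% of all 14905 genes tested passed. Its difference of changes was 0.46 on the log2 scale (SE 0.14, adjusted p = 0.0366, edgeR's quasi-likelihood test). Scaled over all 11 libraries, Hcn3 stood at 20.4 and 22.6 CPM in 1b-/- and between 12.8 and 16.9 CPM in the other 9. The call was lost in 11 of 18 alternatives, with adjusted p from 0.0221 to 0.107 over all of them. Those that lost it were no filter on low counts (adjusted p = 0.0557), the likelihood ratio test (0.0567), sex as a covariate (0.0961) and leaving out any 1b+/- library (0.0504 to 0.0744), WT replicate 1 or 3 of the heterozygous round (0.0590 and 0.0856), 1b-/- replicate 1 (0.107) or WT replicate 2 of the homozygous round (0.102). For Hcn2 the difference of changes was -0.16 (SE 0.27, adjusted p = 0.690) and for Hcn4 0.20 (SE 0.55, adjusted p = 0.815).

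**Figure D2:**
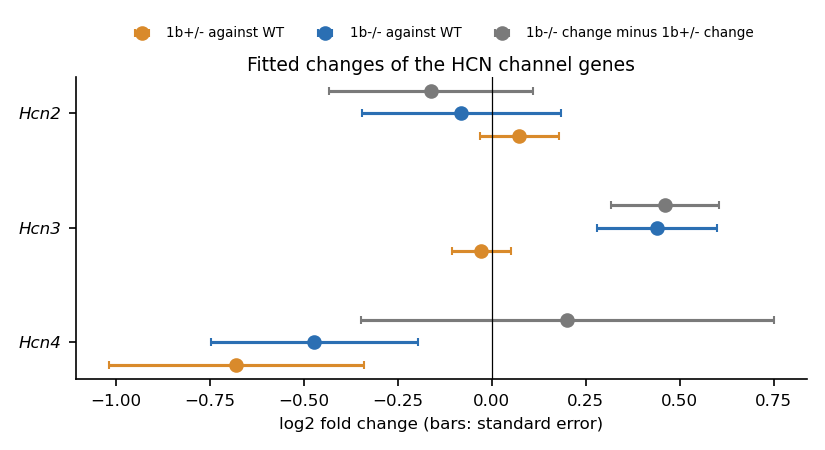
Log2 fold changes of Hcn2, Hcn3 and Hcn4 (horizontal axis, error bars are standard errors of edgeR's fits) in 1b+/- and 1b-/- against WT of the same round, and the difference of the changes. The Hcn3 difference, 0.46, passed the threshold, and Hcn4 was at -0.68 in 1b+/- and -0.47 in 1b-/- with wide errors.

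Hcn4, the least abundant of the 3, had a lower mean in both mutants than in WT, 62.4% of it in 1b+/- and 72.0% in 1b-/-, and neither difference passed. The gene (ENSMUSG00000032338.8) lies at chr9:58671319-58708762 (mm9, plus strand) in 8 exon blocks, with no gene annotated within 5000 bases. The 1b+/- libraries had 2.52, 2.83, 4.86 and 6.76 CPM, from 64, 77, 124 and 194 counts. The WT libraries had 9.45, 5.34 and 5.60 CPM, from 267, 139 and 127 counts. Replicates 1 to 3 of 1b+/- lay below all 3 WT libraries, and replicate 4, the female, lay between them. Means were 4.24 ± 1.98 (SD, n = 4) and 6.80 ± 2.30 CPM (SD, n = 3), with p = 0.2 by the exact permutation test. The log2 fold change was -0.68 (SE 0.34, unadjusted p = 0.0757, adjusted p = 0.484, edgeR's quasi-likelihood test). It was -0.36 without WT replicate 1 and -1.01 without 1b+/- replicate 4.

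Hcn4 of the homozygous round stood at 3.81 and 3.07 CPM in 1b-/-, from 134 and 98 counts, and at 5.01 and 4.54 CPM in WT, from 111 and 97 counts. The 2 mutant libraries were below both WT libraries. Means were 3.44 ± 0.519 and 4.78 ± 0.334 CPM (SD, n = 2 each; exact permutation p = 0.333, the smallest possible). The log2 fold change was -0.47 (SE 0.28, adjusted p = 0.328, edgeR's quasi-likelihood test). Counts of this size were above the floor of 3 counts, which was worth 0.083 to 0.145 CPM. In whole tissue, fewer cells that express a gene and less RNA per cell cannot be told apart.

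The libraries rich in thalamus markers were also the highest for Hcn4 within their groups, and for Hcn2. In the heterozygous round, WT replicate 1 had the highest thalamus sum, Hcn2 level and Hcn4 level of all 7 libraries, and 1b+/- replicates 3 and 4 had the higher values of their group in all 3 quantities. In a fit with genotype and the log2 of the thalamus sum, Hcn4 rose by 0.60 on the log2 scale per doubling of the markers (SE 0.12, adjusted p = 0.0333) and Hcn2 by 0.20 (SE 0.027, adjusted p = 0.00562), where 2.18% of all genes passed for this slope. Hcn3 gave 0.00 (SE 0.057, adjusted p = 0.998). With the thalamus sum in the model, the genotype term of Hcn4 in 1b+/- was -0.71 with a smaller error (SE 0.18, unadjusted p = 0.00267, adjusted p = 0.0957), of Hcn2 0.08 (adjusted p = 0.407) and of Hcn3 -0.03 (adjusted p = 0.917).

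In the 4 libraries of that round with a thalamus sum under 300 CPM, Hcn4 stood at 2.52 and 2.83 CPM in 1b+/- (replicates 1 and 2) and at 5.34 and 5.60 CPM in WT (replicates 2 and 3). Fitted on these 4 alone, Hcn4 was lower in 1b+/- by a log2 fold change of -1.03 (SE 0.17, adjusted p = 0.0283), where 2.04% of 14410 genes passed. Hcn2 gave 0.16 (adjusted p = 0.165) and Hcn3 -0.09 (adjusted p = 0.747). Both fits were chosen after seeing the data and the marker sums, and the second leaves 2 libraries a group. The limit of 300 CPM left out the libraries highest in Hcn4 of each group, at 4.86 and 6.76 CPM in 1b+/- and 9.45 CPM in WT. The adjusted p of the second fit is thus no separate test of Hcn4. The 4 libraries kept were not matched for other tissue. Scaled over all 11 libraries, the 2 1b+/- libraries had hypothalamus sums of 2.35 and 2.68 CPM against 17.6 and 26.6 in WT. Cholinergic sums were 5.70 and 4.86 against 21.4 and 17.2, and striatum sums 109 and 124 against 293 and 167. Over the whole round, Trh made up most of the hypothalamus difference and Ecel1 most of the cholinergic one. Oligodendrocyte sums ran the other way, at 10454 and 10467 CPM in 1b+/- against 6991 and 6751 in WT. So did medial habenula sums, at 137 and 115 against 70.2 and 103. Most of the habenula sum was Nr4a2, at 114 CPM on average in 1b+/- and 85.3 CPM in WT over the whole round. No other listed habenula marker averaged above 4.58 CPM in either group. Choroid plexus sums were 67.0 and 1260 against 1007 and 1164. Within the homozygous round, the thalamus sums of the groups overlapped (152 to 195 CPM in 1b-/- and 161 to 212 CPM in WT), and none of the 9 markers was called there. The part of other tissue in the Hcn4 values of 1b+/- and 1b-/- was not tested beyond these fits.

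**Figure D3:**
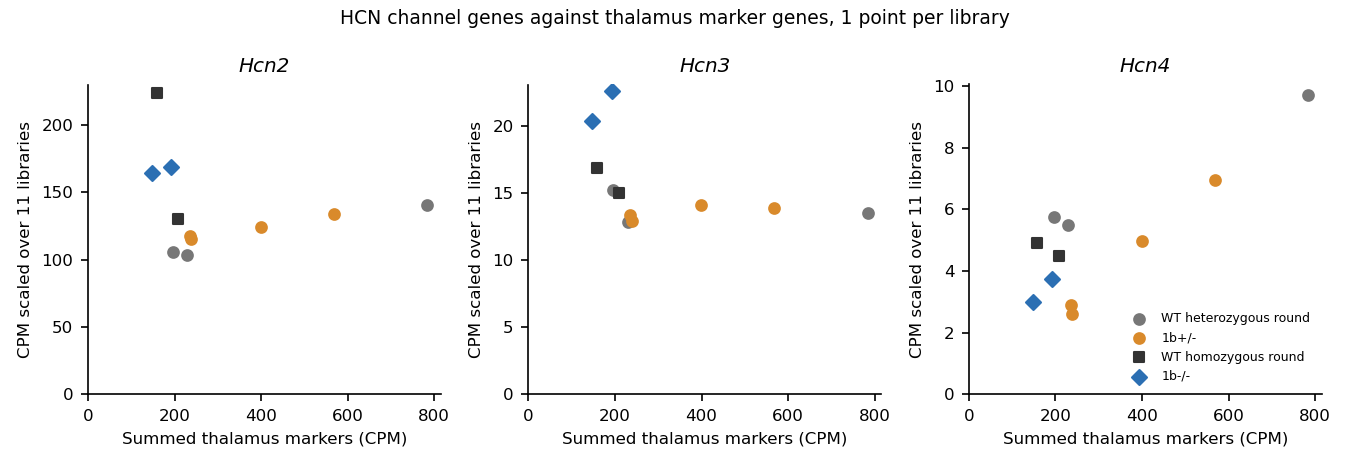
CPM of Hcn2, Hcn3 and Hcn4 (vertical axes) against the summed CPM of 9 thalamus markers (horizontal axis), scaled over all 11 libraries of both rounds, 1 point a library. In the heterozygous round, Hcn2 and Hcn4 are higher in the 3 libraries above 300 CPM than in the others of their genotype. The 2 lowest Hcn4 values of that round, 2.59 and 2.90 CPM, are 1b+/- libraries with thalamus sums of 239 and 235 CPM.

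RefSeq promoter windows (250 bases before to 50 after the start, GRCm38.p6) were held for 2 of the 3 genes, Hcn2 and Hcn4, and are shown to describe the starts of these genes, with no measured value of this study bearing on them. GC content was 72.33% for Hcn2 (chr10:79716384-79716683) and 71.67% for Hcn4 (chr9:58822699-58822998), at or above that of 93.92% and 93.13% of 32851 windows, whose median was 52.67%. GC boxes, written GGGCGG or CCGCCC and searched on both strands without overlap between the patterns, numbered 3 before the start of Hcn2 and 2 before that of Hcn4. Of all windows, 32.74% held at least 1 in the 250 upstream bases. A match is a description of letters and not of a bound site. The box nearest each start is shown in 30 bases of the plus strand, 5′ to 3′, with the box in capitals.
Hcn2, chr10:79716586-79716615: ccacccccggctCCGCCCtccctcgggctc
Hcn4, chr9:58822774-58822803: gcccggccccctCCGCCCccctctatgtct

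The share that each gene took of the summed RPKM of the 3 genes does not depend on scaling between libraries. The family's remaining gene is not in this sum, so these are not shares of all HCN RNA. The 3 shares of a library make up the whole, so their differences are not separate results. In 1b+/- Hcn2 took 90.5, 90.3, 89.2 and 89.0% and in WT 88.3, 87.7 and 86.5%. All 4 mutant libraries were above all 3 WT libraries (89.7 ± 0.747 against 87.5 ± 0.949%; SD, n = 4 and 3), and p = 0.0286 is the smallest that the exact permutation test can give. Of 6 such share tests this was the only one below 0.05, and the p-values were not adjusted over the 6. Striatum sums also separated these groups (114 to 146 CPM in 1b+/- against 152 to 300 CPM in WT). Oligodendrocyte sums were lowest in WT replicates 2 and 3, the libraries with the lowest Hcn2 shares. The part of the tissue mix in the shares was not tested. Hcn4 took 1.71, 1.87, 3.02 and 3.88% in 1b+/- and 5.12, 3.92 and 3.96% in WT. The groups did not overlap here, although they did in CPM (2.62 ± 1.02 against 4.33 ± 0.684%; exact permutation p = 0.0571). Hcn3 took 7.65 ± 0.358 against 8.16 ± 1.53% (exact permutation p = 0.543).

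In the homozygous round Hcn3 took 9.21 and 8.58% in 1b-/- and 5.39 and 7.93% in WT, and Hcn4 1.67 and 1.37% against 1.72 and 2.59%. Neither pair of groups overlapped, and the exact permutation p was 0.333 for both, the smallest possible. Hcn2 took 89.6 ± 0.652 and 91.2 ± 2.41% (SD, n = 2 each; exact permutation p = 0.667). The summed level of the 3 genes was 41.7 ± 3.16 RPKM in 1b+/- (SD, n = 4) against 40.6 ± 6.97 in WT (SD, n = 3). In 1b-/- it was 59.5 ± 0.821 RPKM against 61.5 ± 21.7 in WT (SD, n = 2 each).

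**Figure D4:**
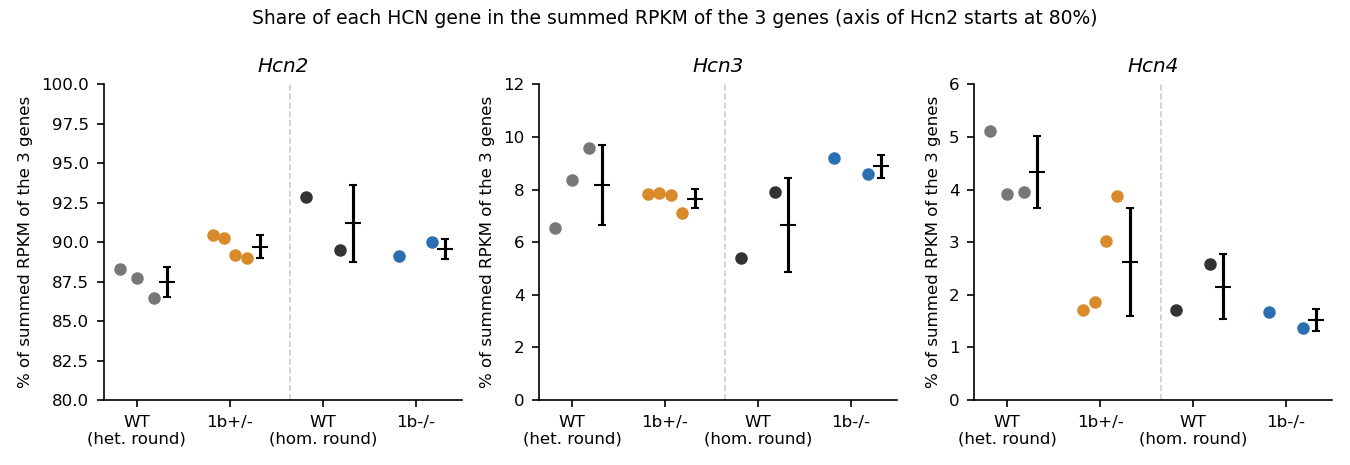
Share of the summed RPKM of Hcn2, Hcn3 and Hcn4 taken by each gene (percent, vertical axes) in each library. In the heterozygous round the Hcn2 share is 89.0 to 90.5% in 1b+/- and 86.5 to 88.3% in WT, and the Hcn4 share 1.71 to 3.88% in 1b+/- and 3.92 to 5.12% in WT.

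Proteins that bind or modify HCN channels were listed apart from the channels, and 12 of 13 were tested in each round. In 1b+/- none was called (0 of 12, where 0% of all genes was called). The smallest p-values belonged to Pex5l, the auxiliary subunit TRIP8b that steers HCN channels to and from the membrane, at 233.2 ± 10.2 against 205.8 ± 17.3 CPM (SD, n = 4 and 3; log2 fold change 0.18, adjusted p = 0.319), and Flna, a filamin that anchors channels to actin, at 0.15 (adjusted p = 0.341). Vapa, an endoplasmic reticulum protein, gave -0.07 (adjusted p = 0.483) and Ptpra, a receptor tyrosine phosphatase, -0.06 (adjusted p = 0.673). The median of the 12 was 0.02, and 0.00 over all genes.

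In 1b-/- 1 of the 12 partners rose, where 2.06% of all genes were called higher. Src, a tyrosine kinase that phosphorylates HCN channels, stood at 170.5 ± 11.6 CPM against 89.6 ± 0.414 in WT (SD, n = 2 each; log2 fold change 0.93, SE 0.12, adjusted p = 0.0292). WT of the heterozygous round had 145.6 ± 4.72 CPM (SD, n = 3; scaled within that round). The 2 WT libraries with the low Src values were those with striatum sums of 2781 to 6735 CPM and CA1 sums of 359 to 417 CPM, and the part of the tissue mix in the Src difference was not tested. Its call was lost without 1b-/- replicate 1 (adjusted p = 0.0575), without either WT library (0.105 without replicate 1 and 0.0730 without replicate 2) and with sex as a covariate (0.0541). Ptpra, whose phosphatase opposes such phosphorylation, gave 0.53 (adjusted p = 0.0917), which passed by DESeq2 (0.0123), by the likelihood ratio test (0.0406) and with all 11 libraries in 1 fit (8.77e-04). Those fits called 2144, 1829 and 5541 genes of the whole table. Mrvi1, the IRAG protein, gave -0.51 (adjusted p = 0.367) and Grasp, a scaffold protein also called tamalin, 0.22 (adjusted p = 0.498). The median was 0.10, and 0.00 over all genes.

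**Figure D5:**
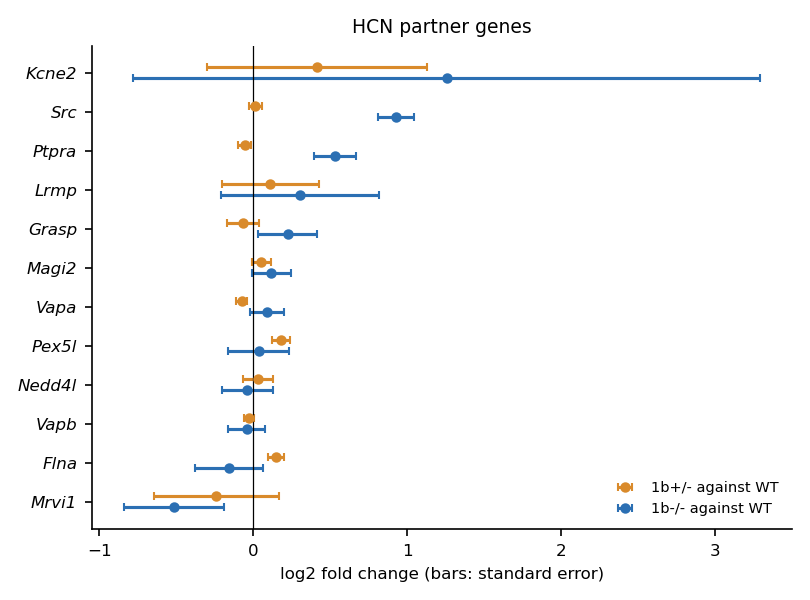
Log2 fold changes against WT (horizontal axis, error bars are standard errors of edgeR's fits) of the tested genes that bind or modify HCN channels, in 1b+/- and 1b-/-. Src, at 0.93 in 1b-/-, is the only one past an adjusted p of 0.05, and in 1b+/- Pex5l at 0.18 and Flna at 0.15 had the smallest p-values.

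Enzymes that make and break down cyclic AMP, the ligand of HCN channels, showed 0 calls in 1b+/- among 9 adenylyl cyclases and 15 phosphodiesterases. Medians were 0.00 and -0.07, beside 0.00 over all genes. Adcy5, the cyclase typical of striatum, gave -0.24 (adjusted p = 0.273) over all 7 libraries, passed without WT replicate 1 (-0.32, adjusted p = 0.0301) and gave -0.16 (adjusted p = 0.608) without WT replicate 2. Adcy1, a calcium-stimulated cyclase, gave 0.28 (adjusted p = 0.320). The phosphodiesterases with the smallest p-values were Pde1b at -0.23 (adjusted p = 0.262; -0.15 without WT replicate 2, adjusted p = 0.579) and Pde4a at 0.12 (adjusted p = 0.339). Striatum markers were also lower in 1b+/- (114 to 146 against 152 to 300 CPM) and were highest in WT replicate 2, and their part was not tested.

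In 1b-/- 1 of 9 cyclases and 6 of 15 phosphodiesterases fell and none rose, where 1.52% of all genes were called lower. The medians were 0.23 and -0.74, beside 0.00 over all genes. Adcy5 stood at 128 ± 5.94 CPM against 712 ± 399 in WT (SD, n = 2 each; log2 fold change -2.48, adjusted p = 0.0473). Pde10a, abundant in striatal neurons, fell by 3.83 on the log2 scale (68 ± 0.860 against 963 ± 547 CPM; adjusted p = 0.0266). Pde1c fell by 1.37 (7.86 ± 0.315 against 20.3 ± 0.547 CPM; adjusted p = 0.0266). Adcy9 gave 0.67 (adjusted p = 0.0894) and passed by DESeq2 (adjusted p = 0.00975), by the likelihood ratio test (0.0193) and with all 11 libraries in 1 fit (0.00502). These 3 fits called 2144, 1829 and 5541 genes of the whole table. Without WT replicate 1, a fit in which 0 genes of the whole table were called (3861 at an unadjusted p under 0.05), Adcy5 gave -1.74 (unadjusted p = 2.15e-04, adjusted p = 0.101), Pde10a -3.08 (unadjusted p = 2.23e-05, adjusted p = 0.0545) and Pde1c -1.39 (adjusted p = 0.101). Without WT replicate 2, Pde1c gave -1.34 (adjusted p = 0.0686). Striatum markers in the WT libraries of this round, given above, were high beside the same genes, and their part was not tested.

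Cyclic nucleotide-gated channels, the relatives of HCN channels in sensory neurons, were barely detected. Of 6 genes, 1 was tested in the heterozygous round and 2 in the homozygous round, with 0 called. Cnga4 stood at 1.001 ± 0.347 CPM in 1b+/- against 1.005 ± 0.141 in WT (log2 fold change -0.01, adjusted p = 0.996), and gave 0.18 (adjusted p = 0.873) in 1b-/-. Cngb1 stood at 1.12 ± 0.0277 CPM in 1b-/- against 0.441 ± 0.369 in WT (log2 fold change 1.34, adjusted p = 0.324). Summed over the 6 genes, the level was 1.14 to 3.04 CPM in all 11 libraries.

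The genes whose levels ran most like each HCN gene were taken from 13160 genes, by Pearson's r of log2 CPM over the 11 libraries after centring on the mean of each round. These libraries share their rounds, genotypes and tissue mix, so r is a description. Nearest to Hcn2 were 1110034G24Rik (r = 0.943), Asb2 (0.941) and Socs6 (0.921). Hcn3 was closest to Bmyc (r = 0.968), Nmbr (0.965) and Fam69b (0.964), and Hcn4 to Reep2 (r = 0.886), Mcf2 (0.886) and Fign (0.871). Over the 7 libraries of the heterozygous round alone, r of these 9 genes with their HCN gene was 0.822 to 0.945. These 7 are among the 11 libraries by which the genes were picked, so this is no separate check. Between the HCN genes themselves r was low, at 0.158 for Hcn2 with Hcn3, 0.327 for Hcn2 with Hcn4 and -0.06 for Hcn3 with Hcn4.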

How the data were processed

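Hippocampal RNA was sequenced from stranded mRNA libraries, each from 1 mouse. Per the labels and the study's methods, the authors used STAR 2.7.2 (mm9 genome) and featureCounts to obtain gene-level values. The deposited values are raw counts, 1 table per round. Sample descriptions name the 2 tables the other way round, so the headers of the tables decided. The 27 symbols per table that a spreadsheet turned into dates (0.300 to 0.372% of counts) belong to no gene reported. A gene was tested if any library reached 1 CPM (14630 genes for 1b+/-, 14838 for 1b-/-), with edgeR 4.0.16 in R 4.3.3, using TMM factors, the quasi-likelihood test and Benjamini-Hochberg adjustment over all genes tested. Standard errors came from the log2 fold change and its F statistic. RPKM used GENCODE M1 exon lengths. Coefficients of biological variation were 9.13 and 22.9%, and libraries of a group differed by more than sampling noise. Exact permutation tests were two-sided over all splits, 35 or 6 of them. In simulated data for 1b+/- and 1b-/-, where 200 genes were given a log2 change of 1.5, the fits recovered 99.5 and 69% of them. Beside 199 and 138 true calls they made 15 and 19 false ones, and 0 and 2 false ones with no gene changed. Alternatives were DESeq2 1.42.0, other scaling and filters, the likelihood ratio test, sex, a shared fit and leaving out each library. Within a round, only 1b+/- replicate 4 and 1b-/- replicate 1 differed in sex from the other libraries. In the comparison of each round, the sex covariate and leaving out that library are thus not separate checks. The text names the HCN genes, Scn1a, overlapping or adjacent genes, the genes of smallest p in each list (4 partners, 2 otherwise) and the 3 nearest by correlation. The members and lists were chosen with earlier results of these data known. The remaining gene of the family was not analysed here.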

Additional observations from a re-analysis of the deposited data

Results flagged for a closer look

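The share of Hcn3 in the summed RPKM of Hcn2, Hcn3 and Hcn4 was 7.81 to 7.86% in 1b+/- replicates 1 to 3 and 7.12% in replicate 4, the female mouse. The gap to replicate 4 was 0.925 of the range of the 4 libraries, above Dixon's 95% critical value. Of the 6 groups of values examined, chance alone flags about 1 in 20.

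The change of Hcn3 in 1b-/- exceeded that in 1b+/- by 0.46 on the log2 scale (adjusted p = 0.0366, edgeR's quasi-likelihood test, 27.3% of genes called). Both 1b-/- libraries were above their WT, and the 1b+/- libraries overlapped theirs. The 2 changes were measured in separate sequencing rounds with separate WT mice.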

How the results depend on the processing

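Of 141 refits of the HCN genes, 123 kept direction and side of the threshold, 2 crossed to it, 11 lost it and 5 turned in sign. The 2 gains were Hcn3 in 1b-/- with all 11 libraries in 1 fit (0.43, adjusted p = 0.0135) and Hcn4 in 1b+/- in the libraries low in thalamus markers (-1.03, adjusted p = 0.0283). The latter fit was chosen after seeing the data and left out the libraries highest in Hcn4 of each group. The first of these fits called 5541 of 14905 genes and the second 294 of 14410. Over all alternatives the adjusted p was 0.115 to 0.9999 for Hcn2 in 1b+/-, 0.161 to 0.937 for Hcn2 in 1b-/-, 0.0135 to 0.490 for Hcn3 in 1b-/-, 0.0283 to 0.9999 for Hcn4 in 1b+/- and 0.314 to 0.746 for Hcn4 in 1b-/-. The 11 losses were the Hcn3 difference of changes, at 0.47 with no filter, 0.46 by the likelihood ratio test, 0.43 with sex and 0.37 to 0.55 over the libraries left out. Leaving out 1 library turned Hcn2 in 1b+/- (-0.00088 without WT replicate 2, up to 0.23), Hcn3 in 1b+/- (-0.075 to 0.042, the latter without WT replicate 3), Hcn2 in 1b-/- (-0.42 to 0.37) and, in the difference of changes, Hcn2 (-0.51 to 0.28) and Hcn4 (-0.12 without WT replicate 1 of the heterozygous round, to 0.51).

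Among 78 permutation alternatives 66 kept their side, 7 lost it and 5 turned. No p below 0.05 was possible in the homozygous round or with a library left out. The side was thus fixed beforehand in those alternatives, and only the direction could move. Mutant minus WT was -0.505 to 17.8 CPM for Hcn2 and -0.784 to 0.384 CPM for Hcn3 in 1b+/-, and -57.9 to 38.3 CPM for Hcn2 in 1b-/-. In percentage points, the Hcn2 share gave 1.71 to 2.64 in 1b+/- (p 0.0667 to 0.133, where no design with a library left out can go below 0.0667) and -3.31 to 0.103 in 1b-/-, and the Hcn3 share -1.32 to 0.193 in 1b+/-.

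Genes called in 1b+/- numbered 245 by DESeq2, 44 without a filter, 191 by the likelihood ratio test, 294 in the libraries low in thalamus markers, 161 with these markers as a covariate, and 0 to 421 with 1 library left out (421 without WT replicate 1). In 1b-/- they numbered 2144 by DESeq2, 1029 without a filter, 1829 by the likelihood ratio test, 5541 with all 11 libraries in 1 fit and 0 to 693 with 1 library left out (0 without WT replicate 1 by edgeR's quasi-likelihood test, with 3861 at an unadjusted p under 0.05, and 192 without WT replicate 2). Scn1a in 1b+/- ran from -0.59 to -0.27 with 1 library left out, never past the threshold, and passed in the libraries low in thalamus markers (-0.43, adjusted p = 0.0218) and with the markers as a covariate (-0.47, adjusted p = 0.0105). Of the other genes named, Cnga4 turned in 1b+/- (-0.28 to 0.14 with a library left out, 0.0082 with upper-quartile factors) and in 1b-/- (-0.23 to 0.63, -0.23 with sex), and Grasp in 1b-/- (-0.024 to 0.43). No paired analysis was possible because the labels give no replicate numbers. Hcn4 had 64 to 267 counts per library in the heterozygous and 97 to 134 in the homozygous round, and changes smaller than 1.5 on the log2 scale were not simulated. Causes were not tested.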
